A study of Mus musculus with 12 samples.

Results

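The genes of cholesterol and fatty acid synthesis were followed in mouse fibroblast-like synoviocytes, stromal cells of the joint lining grown in culture, with and without the inflammatory cytokine TNF, in cells given a control virus and in cells given Cre to delete the SoxC transcription factors. The 36 genes were taken from the deposited expression table by symbol and comprise 7 genes of the mevalonate pathway, 11 of the squalene and sterol steps, 5 regulators of the SREBP pathway, 5 genes of cholesterol transport and 8 of fatty acid synthesis. All 36 were found among the 53341 genes of the table, and all 36 reached a normalized count of 10 or more in 3 or more of the 12 libraries, as did 18139 genes in all. The study asked which parts of the TNF response depend on the SOXC group of factors, Sox4, Sox11 and Sox12.

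All cells came from mice described as SoxC, and the 12 libraries form 4 groups of 3. The group called control had received the adenovirus Ade5CMV-eGFP, and the group called SoxC_KO had received Ade5CMV-Cre, which delivers Cre recombinase from a CMV promoter to whatever cells it enters. The groups control_TNF and SoxC_KO_TNF carried the same viruses and were also given recombinant human TNF at 10 ng/mL for 16 h. The labels name no age, strain or floxed segment. They also leave unsaid whether each library is an animal or culture of its own, so the p-values speak for the spread among these libraries, which may be technical. In cultures of this kind, fewer cells of a type and less RNA per cell cannot be told apart.

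As background, cells adjust sterol synthesis through SREBP transcription factors, made from Srebf1 and Srebf2 and held in the endoplasmic reticulum by the escort protein SCAP and the INSIG retention proteins. When sterols run low SCAP carries SREBP to the Golgi for cleavage, and the freed factor turns on genes of the mevalonate and sterol steps, of fatty acid synthesis and Insig1 itself. Oxysterols, which are hydroxylated cholesterols, bind INSIG and slow this release, and they also activate LXR receptors, which raise the cholesterol exporters Abca1 and Abcg1.

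Normalized totals were 19.6 to 23.1 M per library, and no 2 libraries held identical values. Sox4, the check of the knockout, was at 4238, 4143 and 1857 in the control libraries, 1697, 3646 and 1625 in control_TNF, 1432, 1433 and 548 in SoxC_KO and 1020.1, 1086 and 601 in SoxC_KO_TNF. Sox11 was at 153 to 272 in the control libraries and 26.8 to 175 in SoxC_KO, and Sox12 at 162 to 352 and 194 to 259, so both overlapped between these groups, and all 3 transcripts were still present in the SoxC_KO libraries. For Sox4, every SoxC_KO library was below every control library and every SoxC_KO_TNF library below every control_TNF library. The 4 libraries numbered 3, 1 from each group, stood apart from the rest on the first principal component, which held 51.6% of the variance. All 11 synoviocyte markers checked were kept by the filter. Their summed level was 173383 to 337192 in the libraries numbered 3 and 359282 to 513068 in the others, while that of 8 macrophage markers was 2817 to 3368 and 1114 to 1545. Most of the synoviocyte sum was Col1a1, Col1a2 and Col3a1. These and Cdh11, Prg4, Pdgfra and Pdgfrb were lowest in the library numbered 3 in every group, and Vcam1 and Fap in every group but SoxC_KO_TNF. Pdpn and Thy1 were instead highest in it in every group but SoxC_KO_TNF, where it was lowest, so the markers did not move together. Of 8 adipocyte markers, Adipoq, Cidec, Lep, Retn and Cfd were at 8.3 or less, Plin1 at 3.17 to 20.1 and Fabp4 at 516 to 1119, and Pck1 was at 148 in SoxC_KO_TNF replicate 1 and 22.2 or less elsewhere. The summed level of 10 liver genes, 3 of which reached the filter, was 675 in control_TNF replicate 2 and 4726 in SoxC_KO_TNF replicate 1, against 26.8 to 108 in the other libraries. The part of the liver transcripts in the results was not tested beyond refitting without these libraries.

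Promoter sequences are shown for Insig1, Insig2 and Hmgcs1 and for the oxysterol enzyme gene Ch25h, to let the reader see which control elements lie next to the start site. Hmgcs1 passed none of the tests reported below. Of the desaturase genes that the results turn on, Scd1 had no promoter sequence in the source used, and that of Fads2 is not shown. They are the bases upstream of the RefSeq start site (GRCm38.p6), cut where an annotated exon of the gene begins, 5′ to 3′ on the gene's strand. Capitals mark a match to the sterol regulatory element TCACCCCAC, the CCAAT box CCAAT bound by NF-Y, or the E-box CACGTG, each searched on both strands, so that ATTGG is a CCAAT box on the other strand.
Insig1 (chr5:28071162-28071362, plus strand): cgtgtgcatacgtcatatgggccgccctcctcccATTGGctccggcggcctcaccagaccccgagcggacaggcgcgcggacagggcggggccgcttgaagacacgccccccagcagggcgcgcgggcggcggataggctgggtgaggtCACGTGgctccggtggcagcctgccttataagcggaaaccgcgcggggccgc
Insig2 (chr1:121328025-121328274, minus strand): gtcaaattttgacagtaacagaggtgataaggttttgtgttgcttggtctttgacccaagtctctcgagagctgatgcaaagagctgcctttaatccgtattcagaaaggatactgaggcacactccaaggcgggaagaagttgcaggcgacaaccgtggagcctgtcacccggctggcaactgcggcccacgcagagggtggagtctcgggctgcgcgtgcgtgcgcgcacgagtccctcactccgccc
Hmgcs1 (chr13:119690101-119690350, plus strand): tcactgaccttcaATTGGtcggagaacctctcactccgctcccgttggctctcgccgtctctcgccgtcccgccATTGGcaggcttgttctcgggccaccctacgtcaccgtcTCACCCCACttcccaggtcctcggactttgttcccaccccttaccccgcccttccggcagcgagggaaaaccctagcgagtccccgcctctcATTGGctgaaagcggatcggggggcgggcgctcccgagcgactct
Ch25h (chr19:34475165-34475398, minus strand): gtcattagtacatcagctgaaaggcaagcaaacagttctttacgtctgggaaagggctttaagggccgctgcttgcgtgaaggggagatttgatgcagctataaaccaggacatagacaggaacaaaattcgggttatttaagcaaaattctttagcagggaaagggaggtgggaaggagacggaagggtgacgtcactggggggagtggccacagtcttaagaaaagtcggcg

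In the 300 bases around the start site, from 250 before it to 50 after, windows were found for 27 of the 36 genes. The sterol regulatory element was present in 1 of the 27, Hmgcs1, at base -137 from the start site, which is 3.7% against 0.554% of the windows of 20592 genes. Its looser form TCACNCCAC, which contains the first, was also present in Hmgcs1 only among the 27 (3.7%, against 1.23% of all windows). The CCAAT box was present in 17 of 27 windows (63%, against 38% of all), in 8 of the 9 genes of the squalene and sterol steps that had a window and in 4 of 6 of the mevalonate pathway. Hmgcs1 held it at 4 positions and Mvk at 5. The E-box was present in 5 of 27 (18.5%, against 7.67% of all), namely Hsd17b7, Sc5d, Insig1, Scap and Abca1. The NF-kB letters GGGANTTCC, searched on both strands, were in none of the 27 and in 1.89% of all windows. The Insig2 and Ch25h windows held none of these letters. The Insig2 window lies inside the span that the deposited table gives for the gene, so it belongs to one of its start sites only. These matches are descriptions of the windows and not measured binding sites.

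Divided by the length of the principal transcript in kilobases, the median level over the 12 libraries was highest for Npc2, the soluble cholesterol-binding protein of the lysosome, at 4749 normalized counts per kb. Next came the stearoyl-CoA desaturase Scd2 at 1890.1 per kb, the ATP citrate lyase Acly at 1039, which makes cytosolic acetyl-CoA, and Hmgcs1 at 845, which makes HMG-CoA. Scd1 stood at 839, Fads1 at 729, Sqle at 694, Insig1 at 649.8, Fasn at 609, Srebf2 at 543, Fads2 at 532, Insig2 at 487 and Srebf1 at 395 per kb. The lowest were the fatty acid elongase Elovl6 at 102 and the exporter Abcg1 at 60 per kb. Without division by length, Npc2 was also highest, at a median of 15666 normalized counts, and the phosphomevalonate kinase Pmvk was lowest, at 163.

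Averaged over the 2 cell types, the retention proteins Insig1 and Insig2 were higher with TNF and the desaturases Fads2 and Scd1 lower, each by less than 2-fold. With all 12 libraries as deposited, these 4 genes passed the test of that average with the replicate number taken as a block and not without it. No gene of the mevalonate or sterol steps passed it either way. Within 1 cell type only Fads2 passed with the block, in knockout cells. With the block but no intensity trend in the fit, 0 of the 36 genes passed for the average, against 3.83% of all genes. In the fit of 1 mean per group none of the 36 genes passed limma's Benjamini-Hochberg adjusted p of 0.05 over the 18139 genes in any of 7 comparisons, and the number of the 36 with an unadjusted p under 0.05 was 1 for TNF in control cells, 4 for TNF in SoxC knockout cells, 5 for the average TNF effect (the mean of the 2 TNF responses) and 0 for the others. Over all genes the share with an unadjusted p under 0.05 was 4.21%, 7.38% and 8.17% for these 3 comparisons. The same fit called 0.32% of all genes for TNF in control cells, 0.292% in SoxC knockout cells and 1.17% for the average TNF effect. With the replicate number as a block, which removes what the libraries of a number share, limma called 4 of the 36 for the average TNF effect, 2 higher and 2 lower, against 5.19% of all genes (3.01% higher, 2.18% lower). The count of 4 is 11.1% of the genes. It called 1 of the 36 for TNF in SoxC knockout cells (2.78% of all genes) and 0 in control cells (1.71% of all genes), where the unadjusted p was under 0.05 for 14 and 7 of the 36, against 21% and 12.2% of all genes. The median log2 change over the 36 genes was -0.0091 in control cells and -0.092 in SoxC knockout cells, against -0.018 and -0.0087 over all genes.

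**Figure D1:**
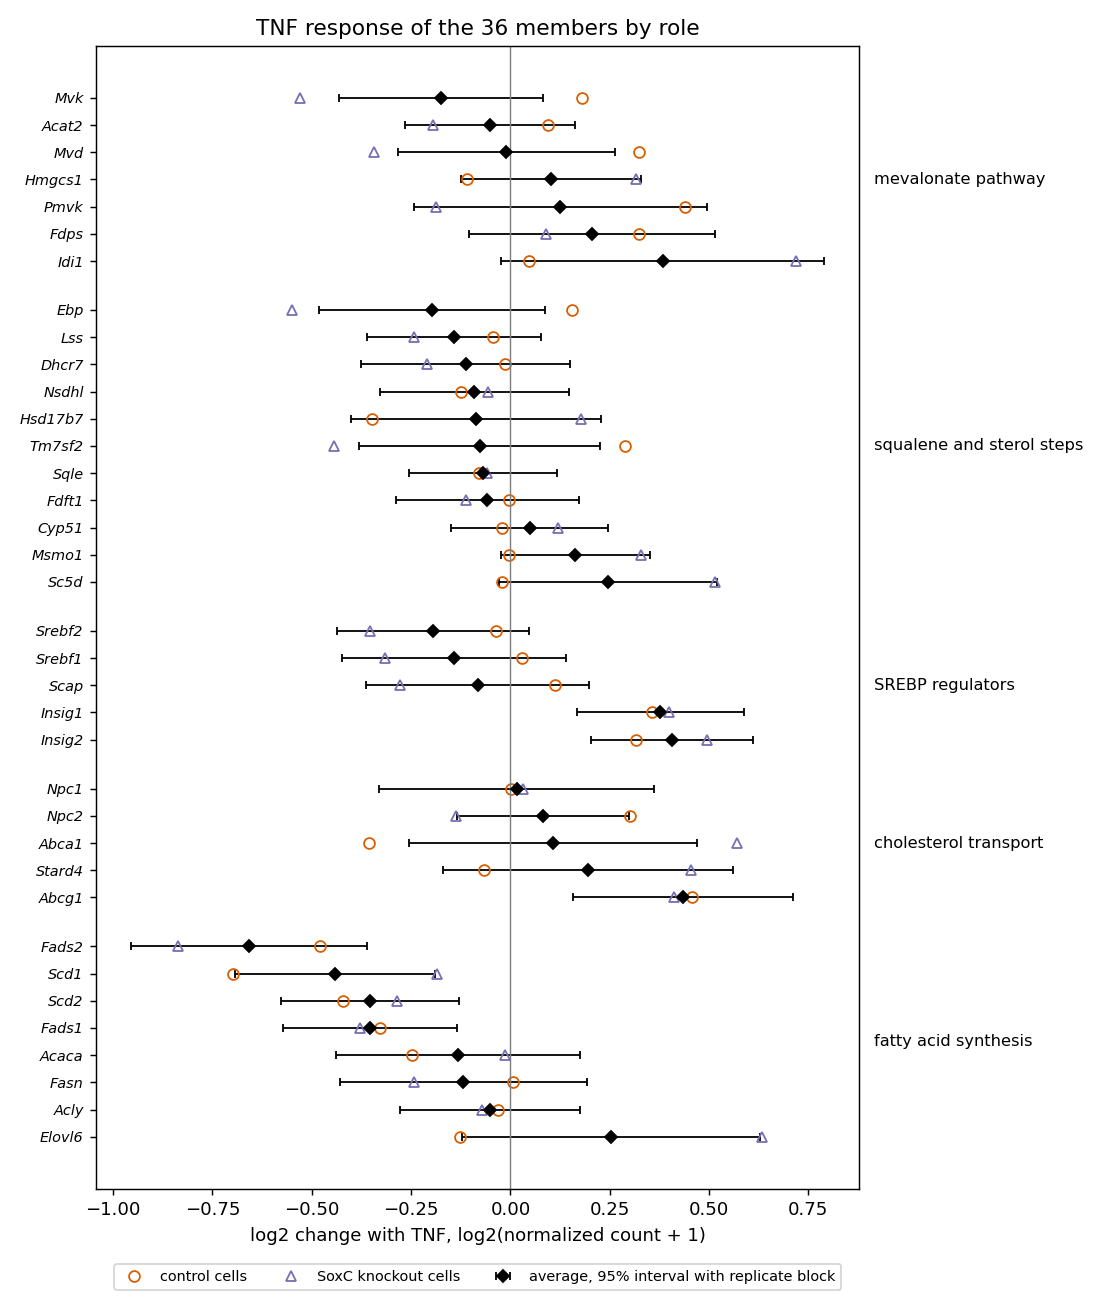
Log2 change with TNF (x axis, on log2 of normalized count + 1) for each of the 36 genes, grouped by role; circles are control cells, triangles SoxC knockout cells, and diamonds their average with its 95% interval from the fit with the replicate block. Insig1, Insig2 and Abcg1 lie to the right of 0 and Fads2, Scd1, Scd2 and Fads1 to the left, with intervals that do not reach 0; most genes of the mevalonate and sterol steps lie around 0, and several of them have the 2 cell types on opposite sides.

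Insig1 (chromosome 5, 28071363 to 28078662, plus strand, mm10) was at 1327, 1343 and 1843 in the control libraries, 1746, 1872 and 2106 in control_TNF, 1369, 1385 and 1375 in SoxC_KO and 1759, 1875 and 1814 in SoxC_KO_TNF. All 3 SoxC_KO_TNF libraries were above all 3 SoxC_KO libraries, while in control cells replicate 3 without TNF (1843) lay among the TNF libraries. The means were 1504 ± 293 and 1908 ± 183 in control cells and 1376 ± 8.23 and 1816 ± 58.1 in knockout cells (SD, n = 3 each). The average log2 change with TNF was 0.38 (SE 0.12, limma adjusted p = 0.289), and with the replicate block the SE was 0.097 and the limma adjusted p 0.0423.

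Insig2 (chromosome 1, 121304353 to 121332589, minus strand), the second retention protein, was at 1116, 1197 and 1329 in the control libraries, 1299, 1482 and 1782 in control_TNF, 1145, 1209 and 1141 in SoxC_KO and 1450.5, 1572 and 1945 in SoxC_KO_TNF. The SoxC_KO_TNF libraries were again all above the SoxC_KO libraries, and in control cells the lowest TNF library lay just under the highest without it. Its average log2 change was 0.41 (SE 0.13, limma adjusted p = 0.264; with the block SE 0.094, adjusted p = 0.0257). Taken by number, both Insig genes were higher with TNF in 6 of 6 differences, 3 in each cell type. The 2 genes are 5.56% of the 36, against 4.91% of all genes with 6 of 6 differences higher.

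The other 3 regulators were not called. Srebf2, the precursor of the factor that mainly drives sterol genes, was at 2972, 2843 and 2093 in the control libraries, 2493, 2918 and 2255 in control_TNF, 2764, 2748 and 3043 in SoxC_KO and 2263, 2762 and 1775 in SoxC_KO_TNF. Its groups overlapped in both cell types, and the average log2 change with TNF was -0.19 (95% interval with the block -0.44 to 0.05). Srebf1, the precursor of the factor tied to fatty acid genes, was at 1753, 1705 and 1334 in the control libraries, 1679.6, 1812 and 1396 in control_TNF, 1860.3, 1691 and 2253 in SoxC_KO and 1580.0, 1964 and 1186 in SoxC_KO_TNF, with an average log2 change of -0.14 (-0.42 to 0.14). For the escort protein Scap the change was -0.08 (-0.36 to 0.20).

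Fads2 (chromosome 19, 10064164 to 10101503, minus strand), the delta-6 desaturase that starts the making of long polyunsaturated fatty acids, had the largest average TNF difference of the 36 genes. It was at 2127, 2285 and 1808 in the control libraries, 1408, 1542 and 1489 in control_TNF, 1919.6, 2063 and 2736 in SoxC_KO and 1404, 1476 and 918 in SoxC_KO_TNF. The highest of the 6 TNF libraries (1542) lay below the lowest of the 6 without TNF (1808), a separation that 0.943% of all genes showed in this direction and that no other of the 36 genes showed. The mean was 2073 ± 243 without and 1479.9 ± 67.3 with TNF in control cells, and 2239.5 ± 436 and 1266 ± 304 in knockout cells (SD, n = 3 each). The average log2 change was -0.66, a level 0.634 times that without TNF (SE 0.16, limma adjusted p = 0.084; with the block SE 0.14, adjusted p = 0.0142). In knockout cells alone it was -0.84 (limma adjusted p = 0.244, with the block 0.0388) and in control cells -0.48 (adjusted p = 0.998, with the block 0.335). By number the differences were -0.45, -0.48 and -1.57 in knockout cells and -0.59, -0.57 and -0.28 in control cells. Without the 4 libraries numbered 3 the change in knockout cells was -0.47 and was not called (limma adjusted p with the block = 0.252). The difference between the 2 responses was -0.36 (SE with the block 0.27, limma adjusted p with the block = 0.471).

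Scd1 (chromosome 19, 44394451 to 44407709, minus strand), which puts the first double bond into saturated fatty acids, was at 5341, 5866 and 2544 in the control libraries, 2531, 4216 and 1744 in control_TNF, 4433, 5470.4 and 2196 in SoxC_KO and 4534, 3893 and 2057 in SoxC_KO_TNF. The libraries numbered 3 were the lowest of each group, and control_TNF replicate 1 lay near them. The average log2 change was -0.44 (SE 0.33, limma adjusted p = 1; with the block SE 0.12, adjusted p = 0.0474), made up of -0.70 in control cells and -0.18 in knockout cells. With no block, leaving out 1 library moved the average between -0.64 (without SoxC_KO replicate 3) and -0.27 (without SoxC_KO_TNF replicate 3) and the value in control cells between -1.08 (without control replicate 3) and -0.40 (without control_TNF replicate 3). In knockout cells number 1 did not go the same way, with 4433 without and 4534 with TNF.

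Scd2 (chromosome 19, 44293676 to 44306864, plus strand) and Fads1 (chromosome 19, 10182888 to 10196870, plus strand; the delta-5 desaturase, named after its values were seen) were lower with TNF in 6 of 6 differences by number, as was Fads2. These 3 genes are 8.33% of the 36, against 5.33% of all genes. Scd2 was at 14340.3, 13904 and 7379 in the control libraries, 7994, 12827 and 5987 in control_TNF, 11635, 12823 and 6877 in SoxC_KO and 10011, 10609.7 and 5332 in SoxC_KO_TNF. Its average log2 change was -0.35 (SE 0.27, limma adjusted p = 1, with the block 0.0777). Fads1 was at 2927, 3028 and 2442 in the control libraries, 2035, 2601 and 2071 in control_TNF, 2678, 2639 and 2699.5 in SoxC_KO and 2374, 2180.5 and 1679 in SoxC_KO_TNF, with an average log2 change of -0.35 (SE 0.13, limma adjusted p = 0.417, with the block 0.0694). All 3 SoxC_KO libraries of Fads1 were above all 3 SoxC_KO_TNF libraries, and in control cells 2601 overlapped 2442. Scd1 and Scd2 are close paralogs that lie near each other, as Fads1 and Fads2 do on the same chromosome, and reads shared by Scd1 and Scd2 may have been split between them in the counting.

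**Figure D2:**
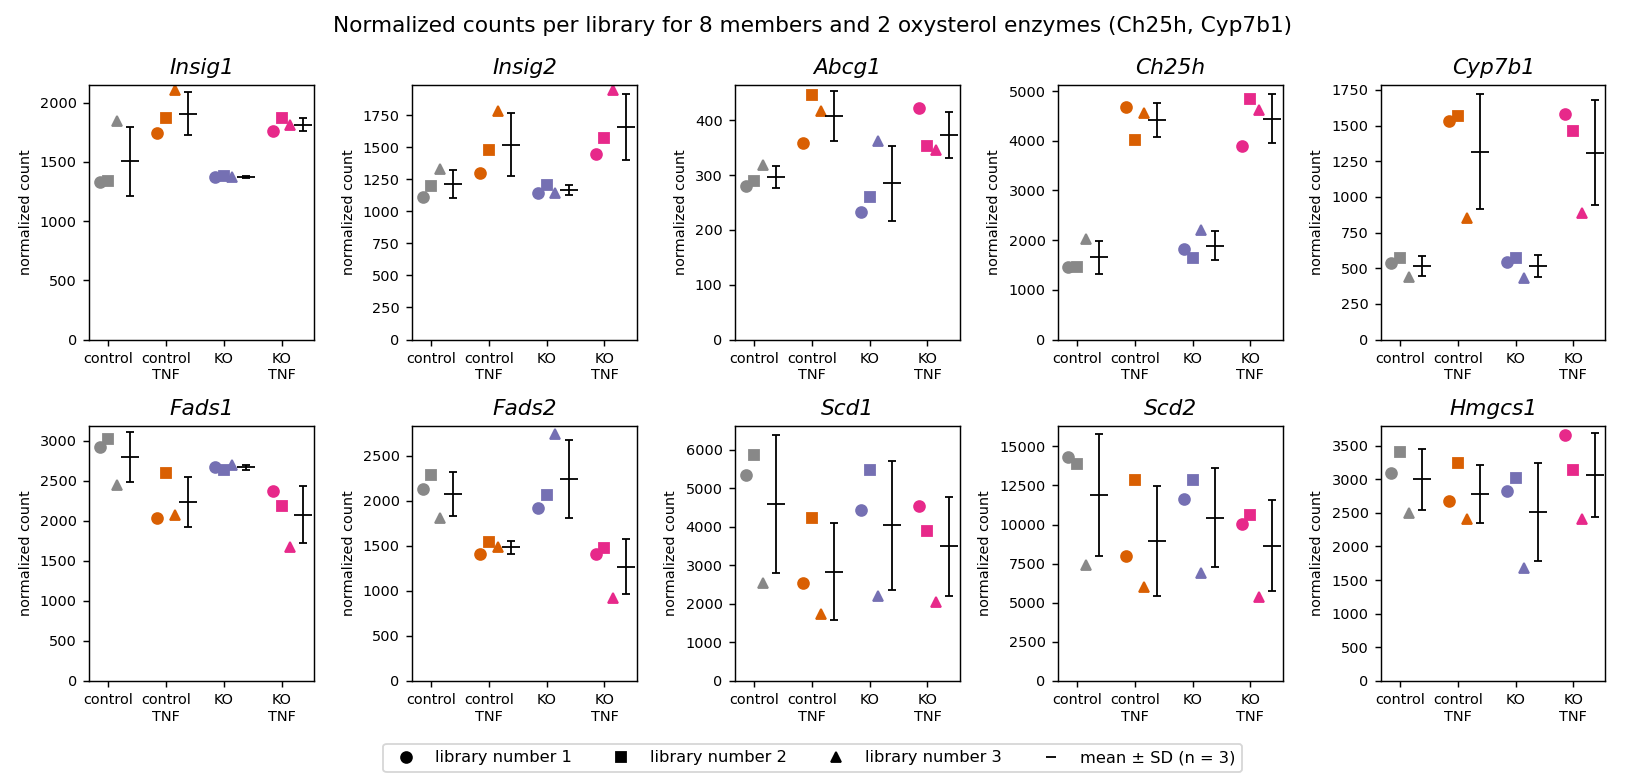
Normalized count in each library (y axis, from 0) for 8 of the 36 genes and the oxysterol enzymes Ch25h and Cyp7b1, by group (x axis; KO stands for SoxC knockout); the marker shape gives the library number and the bar the mean ± SD (n = 3). For Fads2 all 6 TNF libraries lie below all 6 without TNF, for Ch25h and Cyp7b1 all 6 lie above, and for Scd1 and Scd2 the libraries numbered 3 are lowest in every group.

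The remaining genes of fatty acid synthesis showed no such order. Fasn, the fatty acid synthase, was at 7421, 6626 and 2726 in the control libraries, 5259, 8020.1 and 3219.5 in control_TNF, 5994, 6250.2 and 4437 in SoxC_KO and 6395, 6309.9 and 2486 in SoxC_KO_TNF, and its average log2 change was -0.12 (95% interval with the block -0.43 to 0.19). For the acetyl-CoA carboxylase Acaca it was -0.13 (-0.44 to 0.18) and for Acly -0.05 (-0.28 to 0.18). Elovl6, which lengthens palmitate, was at 647, 709.8 and 219 in the control libraries, 469, 779 and 212 in control_TNF, 581, 638 and 131 in SoxC_KO and 810.3, 634 and 357 in SoxC_KO_TNF. Its log2 change with TNF was 0.63 in knockout cells and -0.13 in control cells (limma adjusted p = 0.841 and 0.998). Without SoxC_KO replicate 3, at 131 the lowest of the 12, the value in knockout cells was -0.10. Over the 8 genes 7 had a negative average change, and the median was -0.24.

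In the mevalonate pathway, which turns acetyl-CoA into isoprenoids, no gene was called with or without the block. Hmgcs1, whose promoter holds the sterol element shown above, was at 3094, 3404 and 2499 in the control libraries, 2679.9, 3247 and 2404 in control_TNF, 2830.4, 3023 and 1673 in SoxC_KO and 3654, 3134 and 2409 in SoxC_KO_TNF. Its groups overlapped, and the average log2 change with TNF was 0.10 (95% interval with the block -0.12 to 0.33). Idi1, the isopentenyl diphosphate isomerase, was at 1347, 1400.1 and 1077 in the control libraries, 1478, 1468 and 1035 in control_TNF, 1289, 1502 and 419 in SoxC_KO and 1690.0, 1521 and 1409 in SoxC_KO_TNF. Its log2 change in knockout cells was 0.72 (limma adjusted p = 0.761, with the block 0.172), and it was 0.20 without the 4 libraries numbered 3, and SoxC_KO replicate 3 (419) was far below the other 11.

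The mevalonate kinase Mvk was at 638, 605 and 1126 in the control libraries, 819, 661 and 1166 in control_TNF, 769, 702 and 1507 in SoxC_KO and 517, 657 and 796 in SoxC_KO_TNF. Pmvk, the next kinase, was at 125, 121 and 229.8 in the control libraries, 189, 147 and 312 in control_TNF, 172, 102 and 448 in SoxC_KO and 130.5, 154 and 264 in SoxC_KO_TNF. In both, the library numbered 3 was the highest of its group. The log2 change with TNF was 0.18 and 0.44 in control cells and -0.53 and -0.19 in knockout cells, in that order, with limma adjusted p of 0.998 or more in control cells and 0.801 or more in knockout cells. For the remaining 3 genes the average change was -0.05 for the thiolase Acat2, -0.01 for the decarboxylase Mvd and 0.21 for the farnesyl diphosphate synthase Fdps. Fdps shares exons on its own strand with another annotated gene, so its level is uncertain.

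Squalene and sterol steps gave 0 calls of 11 in every comparison, with or without the block. Sqle, the squalene epoxidase, was at 1885, 2054 and 1558 in the control libraries, 1727, 2019.8 and 1470.3 in control_TNF, 1941, 2046 and 1747 in SoxC_KO and 1981, 2099 and 1476 in SoxC_KO_TNF. The spread within each group was larger than the difference between groups, and the average log2 change was -0.07 (95% interval with the block -0.25 to 0.12). The other 10 genes had average changes between -0.20 for the sterol isomerase Ebp and 0.25 for the desaturase Sc5d, 3 of the 11 positive. Msmo1, the sterol methyl oxidase, was higher in all SoxC_KO_TNF libraries (1987, 1954 and 1959) than in all SoxC_KO libraries (1581, 1680.0 and 1442), with no such order in control cells (1669, 1759 and 1709 with and 1604, 1731 and 1816 without TNF). Its average log2 change was 0.16 (limma adjusted p with the block = 0.41). Nsdhl, a sterol dehydrogenase, was lower in all control_TNF libraries (621, 640.3 and 637) than in all control libraries (669.6, 729 and 671). Counting all 36 genes, 1 was higher and 2 lower without overlap in control cells (Abcg1, and Nsdhl and Fads2), and 3 were higher and 2 lower in knockout cells (Msmo1, Insig1 and Insig2, and Fads1 and Fads2). Over all genes these shares were 4.6% higher and 4.11% lower in control cells, and 6.43% and 6.4% in knockout cells, so the counts of the 36 are near the background.

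Abcg1 (chromosome 17, 31057698 to 31115777, plus strand), which exports cholesterol to lipoproteins, was at 279.9, 290.0 and 319 in the control libraries, 359, 447 and 418 in control_TNF, 232, 261 and 362 in SoxC_KO and 422, 353 and 346 in SoxC_KO_TNF. The control_TNF libraries were all above the control libraries, and in knockout cells SoxC_KO replicate 3 (362) lay within the TNF libraries. The average log2 change was 0.43 (SE 0.15, limma adjusted p = 0.316, with the block 0.0787), and 0.57 without the 4 libraries numbered 3 (limma adjusted p = 0.0406). Abca1, which exports cholesterol to apolipoprotein A-I, was at 1916, 1926 and 571 in the control libraries, 996, 2197 and 459.9 in control_TNF, 1319, 1709 and 395 in SoxC_KO and 2083, 1706 and 819.9 in SoxC_KO_TNF. The values ran from 395 to 2197 with the groups overlapping throughout, and the log2 change was -0.36 in control cells and 0.57 in knockout cells (limma adjusted p = 0.998 and 0.852).

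Npc2 was at 13161, 12764 and 24993 in the control libraries, 18011, 14504 and 30126 in control_TNF, 15765, 13339 and 30394 in SoxC_KO and 13398, 15568 and 23024 in SoxC_KO_TNF. Here too the library numbered 3 was the highest of each group, and the average log2 change with TNF was 0.08 (95% interval with the block -0.13 to 0.30). For its membrane partner Npc1 the average was 0.02 (-0.33 to 0.36), and for the sterol carrier Stard4 0.19 (-0.17 to 0.56). None of the 5 transport genes was called with or without the block.

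Related genes outside the 36 were read from 3 lists. In the list of oxysterol enzymes 2 of 4 rose with TNF on average, where 1.17% of all genes were called. The lists were chosen with earlier results of these data known, so this count is not a test of the list. Ch25h (chromosome 19, 34473786 to 34475135, minus strand), which makes 25-hydroxycholesterol, was at 1458, 1467 and 2029 in the control libraries, 4680.0, 4022 and 4557 in control_TNF, 1812, 1647 and 2207 in SoxC_KO and 3889, 4833 and 4619 in SoxC_KO_TNF. All 6 TNF libraries were above all 6 without TNF, a separation 1.48% of all genes showed in this direction. The log2 change was 1.43 in control cells (SE 0.19, limma adjusted p = 0.0124), 1.24 in knockout cells (SE 0.19, adjusted p = 0.0221) and 1.34 on average (SE 0.14, adjusted p = 0.000614), a level 2.53 times that without TNF. The average was called in each of 12 fits that left out 1 library. The change in control cells was called in 7 of those 12, the exceptions being those without control replicate 1 or 2 or any control_TNF library (adjusted p of up to 0.101). The change in knockout cells was called in 6, the exceptions being those without control_TNF replicate 1, SoxC_KO replicate 1 or 2 or any SoxC_KO_TNF library (up to 0.141). Fitted on only the groups compared, neither change was called (adjusted p = 0.161 and 0.278), and with upper-quartile scaling that in knockout cells was not (0.0512). Without the 2 libraries with liver transcripts the average was 1.42 (adjusted p = 0.0061), and the changes in control and knockout cells, 1.5 and 1.33, were not called (adjusted p = 0.0846 and 0.117).

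Cyp7b1 (chromosome 3, 18071950 to 18243338, minus strand), which degrades oxysterols by 7-alpha hydroxylation, was at 536, 575 and 436 in the control libraries, 1529.9, 1569.5 and 852 in control_TNF, 542, 573 and 431 in SoxC_KO and 1582, 1461 and 889 in SoxC_KO_TNF. Its 6 TNF libraries were likewise all above the other 6, and the libraries numbered 3 were the lowest in each group. The average log2 change was 1.31 (SE 0.21, limma adjusted p = 0.00924), and 1.31 and 1.31 in control and knockout cells (adjusted p = 0.15 and 0.138, with the block 0.000741 and 0.000634). Without the 2 libraries with liver transcripts the average was 1.15 (adjusted p = 0.0814). The difference between the 2 cell types' responses was -0.19 for Ch25h and 0.01 for Cyp7b1 (SE with the block 0.21 and 0.22), and neither was called. Cyp27a1, at 35.4 to 104 normalized counts, and Cyp46a1, at 30.7 to 57.2, did not pass. None of the 15 genes of sterol sensing, SREBP processing and sterol handling was called with or without the block, with average changes from -0.24 for the lipoprotein receptor Vldlr to 0.27 for the mitochondrial protein Tspo. Of 21 genes of fatty acid activation, elongation and storage 18 were tested and none was called. The nearest was the acyl-CoA synthetase Acsl5, with an average change of 0.31 (limma adjusted p = 0.309, with the block 0.051). Ch25h shares 159 bases of exon with Gm26902 on the other strand, and no source used here states whether the counting used strand.

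The SoxC knockout libraries, which still held Sox4, Sox11 and Sox12 transcripts, gave no call among the 36 genes. With limma, 0 were called without TNF, with TNF and on average, at 0% of all genes in each, and the number with an unadjusted p under 0.05 was 0 in each. With the replicate block the counts called were also 0 (unadjusted p under 0.05 for 0, 2 and 0 of the 36, against 4.55%, 6.4% and 1.62% of all genes), and 0.00551% of all genes passed for the average knockout effect, which is Sox4 alone (log2 change -1.46, adjusted p with the block = 0.0146). The average knockout change of the 36 genes ran from -0.16 for Nsdhl to 0.10 for Srebf1, with a median of -0.033 against -0.015 over all genes. The 95% intervals with the block reached from -0.51 (Idi1) at the lowest to 0.45 (Pmvk) at the highest, with a median half-width of 0.27.

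Within 1 condition the knockout differences were wider. Without TNF the largest were -0.44 for Idi1, -0.41 for Abca1 and 0.39 for Pmvk, and with TNF 0.51 for Abca1, 0.41 for Elovl6 and -0.41 for Mvk (limma adjusted p of 0.999 or more without TNF and 0.997 or more with it). Each but that of Mvk turned in sign when 1 library was left out. Without SoxC_KO replicate 3 the values without TNF were 0.14 for Idi1, 0.23 for Abca1 and -0.19 for Pmvk, and without control_TNF replicate 3 those with TNF were -0.05 for Abca1 and -0.09 for Elovl6. Mvk ran from -0.60 without control_TNF replicate 2 to -0.19 without control_TNF replicate 3. No gene of the 36 separated the groups without TNF (2.39% of all genes did so upward and 1.98% downward). With TNF, Msmo1 was higher and Fdft1, the squalene synthase, lower without overlap, at 1406, 1389 and 1356 in SoxC_KO_TNF against 1443, 1436 and 1863 in control_TNF (2.82% and 2.34% of all genes). Fdft1 shares 774 bases of exon with Ctsb on the other strand.

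**Figure D3:**
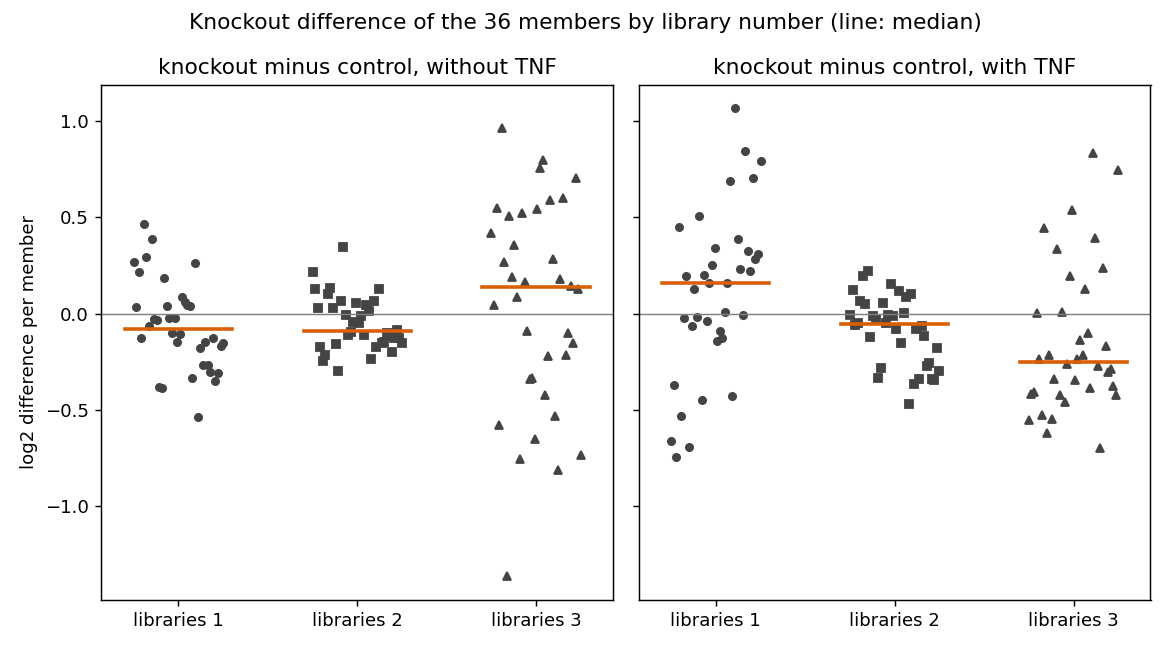
Difference between knockout and control library of the same number for each of the 36 genes (y axis, log2), without TNF (left) and with TNF (right); lines mark the median of the 36. The medians are -0.081, -0.090 and 0.14 without TNF and 0.16, -0.055 and -0.25 with TNF for the numbers 1, 2 and 3, so that no direction is shared by the 3 numbers in either condition, and the points of number 3 spread most widely without TNF.

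No gene of the 36 passed the test of a difference in TNF response between control and knockout cells. The difference of responses was called for 0 of 36, at 0% of all genes, with or without the block, and for 0 and 8 of the 36 the unadjusted p was under 0.05, against 1.51% and 17.2% of all genes. The widest values were 0.92 for Abca1, 0.76 for Elovl6, -0.73 for the sterol reductase Tm7sf2, -0.71 for Mvk, -0.71 for Ebp and -0.66 for Mvd (SE with the block 0.33, 0.34, 0.28, 0.24, 0.26 and 0.25; limma adjusted p with the block 0.284 or more). By number, the TNF difference of Abca1 was -0.94, 0.19 and -0.31 in control cells and 0.66, -0.0022 and 1.05 in knockout cells, and that of Mvk was 0.36, 0.13 and 0.051 against -0.57, -0.097 and -0.92. Number 2 thus gave differences near 0 in knockout cells for both genes. Of these 6 genes, Abca1 and Elovl6 have the longest transcripts, and Tm7sf2, Mvk, Ebp and Mvd are among the shorter of the 36. Tm7sf2 shares 532 bases of exon with Vps51 on its own strand, so its level is uncertain.

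The levels of many of the 36 genes moved with the library number, in an order that followed transcript length. Relative to the mean of the libraries numbered 1 and 2, the library numbered 3 was lower in all 4 groups for 14 of 36 genes (38.9%, against 31.8% of all genes) and higher in all 4 for 10 (27.8%, against 29.3%). The mean log2 difference over the 4 groups was -1.64 for Abca1, -1.58 for Elovl6, -1.24 for Acaca, -1.06 for Scd1, -1.05 for Fasn and -0.87 for Scd2, whose principal transcripts are 4832 to 10262 bases long. It was 1.11 for Pmvk, 0.82 for Tm7sf2, 0.81 for Mvd, 0.79 for Ebp and 0.75 for Mvk, with transcripts of 1194 to 1756 bases, and 0.90 for Npc2, with 3299. For the other called genes the mean was 0.17 for Insig1, 0.22 for Insig2 and -0.12 for Fads2. For Fads2 it joined unlike values, which were -0.29 without and 0.015 with TNF in control cells, and 0.46 without and -0.65 with TNF in knockout cells. As a description across genes, which are not independent replicates and share the same 12 libraries, the difference followed log10 of transcript length with Pearson r = -0.82 and Spearman rho = -0.78 over the 36 genes, and with r = -0.47 and rho = -0.51 over 18112 genes with a length. What sets the libraries numbered 3 apart was not tested.

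**Figure D4:**
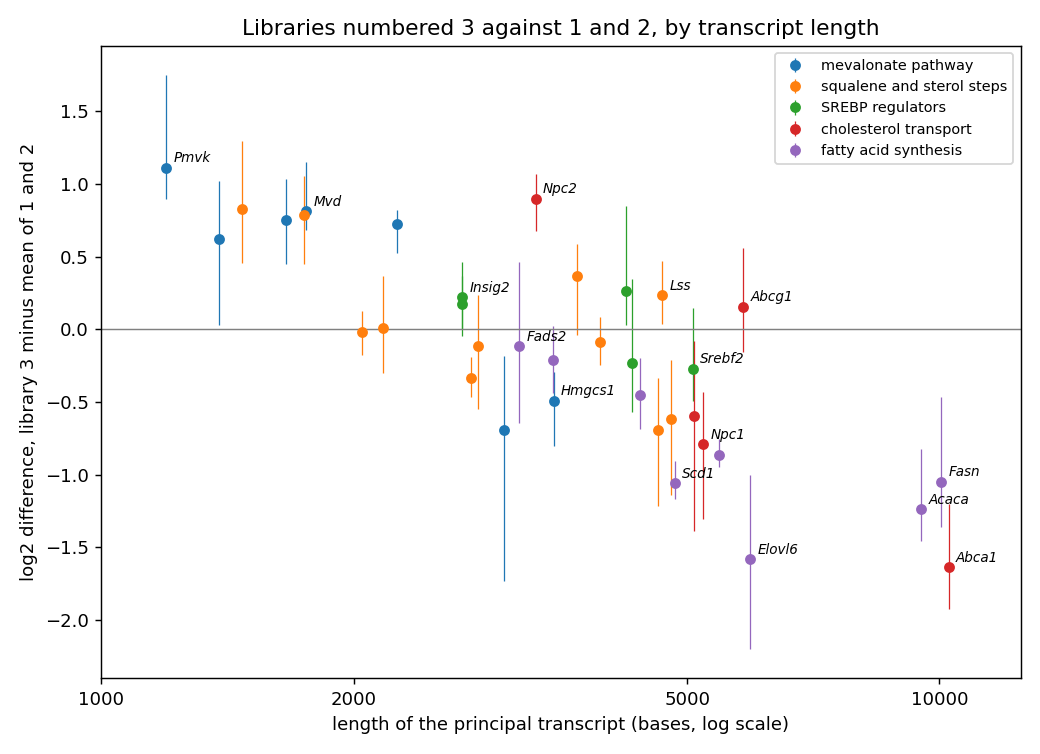
Log2 difference of the library numbered 3 from the mean of numbers 1 and 2 (y axis; points are means over the 4 groups and lines the range over them) against the length of the principal transcript in bases (x axis, log scale) for the 36 genes, coloured by role. Short transcripts such as Pmvk lie above 0 and long ones such as Abca1, Elovl6 and Acaca below; Npc2 and Abcg1 lie above genes of like length.

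Removing each library's trend on length before the fit left the average TNF changes of the called genes nearly as they were, at -0.66 for Fads2, 0.37 for Insig1, 0.40 for Insig2 and -0.43 for Scd1. Fads2 was then called also without the block (limma adjusted p = 0.0394), as 1 of 36 against 2.14% of all genes, and with the block Scd2 (-0.35, adjusted p = 0.0365) and Fads1 (-0.35, adjusted p = 0.0439) were called too, which makes 6 of 36 (16.7%) against 6.57% of all genes. With the length trend removed and the block, Insig2 and Fads2 were called in knockout cells (4.12% of all genes) and Scd1 in control cells (2.02%). The calls rest on few libraries. With the block, the average TNF effect of Fads2 stayed between -0.72 and -0.53 when each library was left out in turn and was called in 10 of 12 such fits, with adjusted p of up to 0.0576, the exceptions being those without control replicate 1 and without control replicate 2. In knockout cells alone, Fads2 was called in 3 of 12 (-0.96 to -0.58), those without control_TNF replicate 1, SoxC_KO replicate 2 or SoxC_KO_TNF replicate 2. For the average effect Insig2 was called in 5 of 12 (0.35 to 0.44), those without control_TNF replicate 1, any SoxC_KO library or SoxC_KO_TNF replicate 2. Scd1 was called in 3 (-0.51 to -0.34), those without control_TNF replicate 2, SoxC_KO replicate 3 or SoxC_KO_TNF replicate 1. Insig1 was called in 2 (0.34 to 0.44), those without control replicate 3 or SoxC_KO_TNF replicate 3. Without the 4 libraries numbered 3 and with no block, limma called Fads2 (-0.52, adjusted p = 0.0123), Insig1 (0.42, adjusted p = 0.0313) and Abcg1, 3 of 36 against 3.8% of all genes. Without the 2 libraries with liver transcripts and with the block, Fads2 (-0.70, adjusted p = 0.0473) and Scd1 (-0.56, adjusted p = 0.038) were called and Insig1 (0.36, adjusted p = 0.177) and Insig2 (0.42, adjusted p = 0.1) were not. Each of these genes kept its direction in all of these fits.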

How the data were processed

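Poly(A) RNA from 12 libraries was sequenced as paired reads, per the labels' protocols. The deposited table holds a normalized log2 value for each gene in each library, per the file headers and the values, with values at or under 1 normalized read listed as 0. Per the submitters' processing notes, the authors used DESeq and the mm10 build. The names of the aligner, annotation and strand setting were not given in the sources used here. Of the gene identifiers 99.8% were found in GENCODE vM21, which gave transcript lengths. The log2 was undone (a listed 0 stayed 0), since the planned analysis assumed a linear scale, and analysed as log2(normalized count + 1), which understates changes of low genes. Genes at 10 or more in at least 3 libraries were fitted with limma 3.58.1 in R 4.3.3 (1 mean per group, all 12 libraries, intensity trend), with Benjamini-Hochberg adjustment over the 18139 genes kept and a threshold of 0.05. The fit was tested on simulated data. The simulated libraries were independent and held no difference by library number or transcript length, so that test does not cover such differences. Read depth is not known from these values. Figures used matplotlib 3.10.9.

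Libraries share replicate numbers across groups. After group means were removed, libraries of the same number correlated at 0.10, 0.55 and 0.72 for TNF in control cells. The values were 0.34, 0.15 and 0.50 for TNF in knockout cells and 0.46, 0.52 and 0.71 for the knockout without TNF. Each was over the cutoff of 0.1 at which numbers were read as pairs, so fits with the replicate block are given beside results they change. In no comparison did every library correlate best with the library of its own number. The 3 deviations from a group mean sum to 0, so the libraries numbered 3 alone can raise the values of numbers 1 and 2. These correlations therefore cannot show that the numbers are pairs. For the knockout with TNF the values were 0.054, 0.19 and 0.53, so the numbers fell short of the cutoff there. The block is a single term per number shared by all groups. Every fit with it, including those of the average TNF effect, thus treats these libraries as paired too.

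The genes, roles and related lists were chosen with earlier results of these data known. Values in every library are printed for genes called in any comparison, the 3 largest changes in each single comparison, the highest and lowest gene by median, and 10 genes named in advance; of related lists, for called genes. Marker lists covered synoviocytes, adipocytes, hepatocytes, muscle, macrophages, keratinocytes and endothelium. The summed level over libraries ran from 506 to 1532 for muscle, 1114 to 3368 for macrophages, 1244 to 3015 for keratinocytes, 163 to 272 for endothelium and 545 to 1135 for adipocytes, and their part in the results was not tested. Alternatives were other pseudocounts, filters, scalings, moderation, blocking and left-out libraries; the fits without the libraries numbered 3 or with liver transcripts, with the length trend removed (lowess, span 0.3), and with the block combined with each other choice were chosen after seeing the data.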

Additional observations from a re-analysis of the deposited data

How the results depend on the processing

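Without a replicate block, 0 of the 36 genes were called in each of the 7 comparisons under pseudocounts of 0.5 and 5, no filter, a filter of 50, both other scalings, no intensity trend, robust moderation, without the 2 libraries with liver transcripts, and in all 12 fits leaving out 1 library (range 0 to 0). Fits of only the groups compared, made for the 4 single comparisons, also called 0. The count for the average TNF effect became 3 without the libraries numbered 3 and 1 with the length trend removed. With the replicate block it was 4, and 6 with the length trend also removed; for TNF in SoxC knockout cells it was 1 and 2, and for TNF in control cells 0 and 1. The block by number left the counts for both knockout comparisons, their average and the difference of responses at 0. With the block kept, the average TNF count of 4 became 2 with no filter on low values, 0 with no intensity trend, 1 without the libraries numbered 3 and 2 without the liver libraries. The count for SoxC knockout cells became 0 with no intensity trend, 0 in the fit of only the groups compared, 0 without the libraries numbered 3, 0 without the liver libraries and 2 with the length trend removed, and the count for control cells became 1 in the fit of only the groups compared and 1 with the length trend removed. Leaving out each library in turn with the block gave 0 to 4 for the average TNF effect (0 without control replicate 1 and without control replicate 2), 0 to 7 for SoxC knockout cells (7 without SoxC_KO_TNF replicate 2, namely Abca1, Ebp, Elovl6, Fads2, Insig2, Mvk and Sc5d, where 12.4% of all genes were called) and 0 to 1 for control cells. The cause of these changes was not tested. For the average TNF effect, Fads2, Insig1, Insig2 and Scd1 kept their direction under every alternative run. Elovl6 did not keep its direction in SoxC knockout cells, where leaving out 1 library with no block moved its log2 change between -0.10 and 1.03. The spread between 3 libraries limits what could be called, since the median half-width of the 95% interval for a TNF change in 1 cell type was 0.71 on the log2 scale, and 0.38 with the block.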
